A study of Mus musculus with 6 samples.

Results

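Cck+ neurons of the mouse suprachiasmatic nucleus (SCN) were defined as the nuclei that the deposited cell annotation assigns to the cluster of SCN Cck+ neurons. They numbered 1848 of 22796 annotated nuclei. Each of the 1848 was found by its barcode in exactly 1 library of its stage. The nuclei came from wild type C57BL6/J mice that received no treatment, and were profiled by single-nuclei RNA sequencing in 6 libraries, 1 at gestational day 17.5 (GD17.5), 1 at postnatal day 2 (PND02), 2 at PND10 and 2 at PND30. Every stage was a pool of 10 animals of both sexes from at least 5 mothers, with the SCN dissected 3 to 5 hours after lights on, so a library is not 1 animal. The second library of PND10 and of PND30 came from a repeat of the library preparation and sequencing. It was not stated whether it used other animals, so any p-value here measures the spread between libraries, which may be technical.

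The SCN is the central circadian pacemaker of mammals, and most of its neurons are GABAergic, set among astrocytes and other glia. The neurons are commonly divided by the neuropeptide they produce. Vip+ neurons receive light input from the retina, Avp+ neurons make vasopressin, Nms+ neurons make neuromedin S, and Cck encodes the precursor of cholecystokinin, a peptide transmitter of gut and brain.

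The count tables used here carry no gene names, so no gene is named below. For the same reason the label could not be checked against Cck, its defining marker, nor could markers of other cell types be read in these nuclei. A feature is 1 line of the count table, in the same order in all libraries, and is referred to by its row number. All levels are UMI counts (unique molecules) summed over the nuclei of a cluster in a library and scaled to a fixed total, the usual CPM. The clusters were made by the authors from the same counts, so a difference between clusters is given as a description with no test. SCN neurons here are the clusters named Avp+, Vip+, Nms+ and Cck+ and the early SCN neurons of the younger stages.

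Cck+ nuclei were almost confined to PND30. None of 4292 SCN neuron nuclei at GD17.5 carried the annotation (95% Clopper-Pearson limit 0.0859%), and none of 4623 did at PND02 (limit 0.0798%). At PND10 there was 1 Cck+ nucleus of 477 SCN neurons in replicate 1 (0.210%, 95% Clopper-Pearson interval 0.00531% to 1.16%) and 20 of 2439 in replicate 2 (0.820%, 0.502% to 1.26%). At PND30 there were 84 of 550 in replicate 1 (15.3%, 12.4% to 18.6%) and 1743 of 4539 in replicate 2 (38.4%, 37.0% to 39.8%). Both PND30 libraries lay above both PND10 libraries. The PND10 libraries averaged 0.515% ± 0.432 (SD, n = 2). The PND30 libraries averaged 26.8% ± 16.4 (SD, n = 2), which is 26.3 percentage points higher. A two-sided exact permutation test gave p = 0.33, which is the smallest p that 2 libraries against 2 can give. These intervals and limits cover counting error only, and a limit concerns the annotation and not cells that express the gene.

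**Figure D1:**
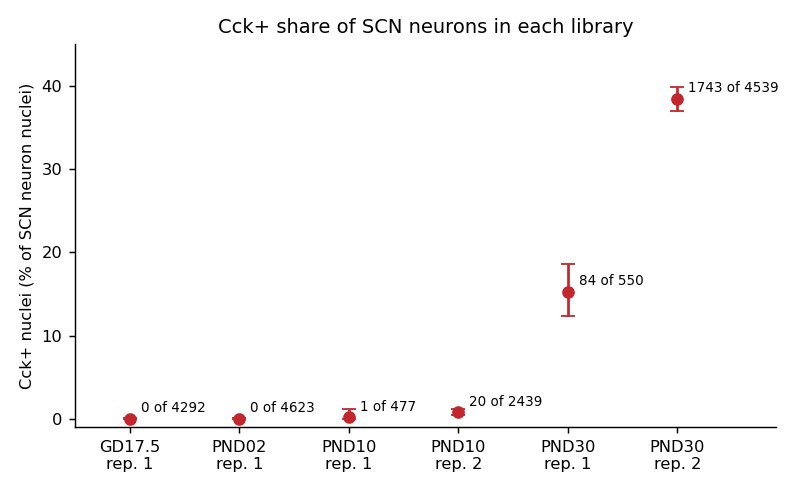
Share of SCN neuron nuclei annotated as Cck+ (vertical axis, percent) in each of the 6 libraries (horizontal axis). Points are shares, bars are 95% Clopper-Pearson intervals, and the text gives the nuclei counted. The 2 PND30 libraries stand at 15.3% and 38.4% and all others at or below 0.820%.

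The PND30 libraries differed from each other by more than counting error. Set against the other clusters, there were 0.240 Cck+ nuclei per Avp+ nucleus in replicate 1 and 1.37 in replicate 2. Against Vip+ neurons the values were 0.771 and 2.00. Cck+ neurons were thus the second smallest SCN neuron cluster of replicate 1 and the largest of replicate 2. Nms+ neurons moved in the same direction, from 7 nuclei (1.27% of SCN neurons) to 657 (14.5%). Avp+ neurons fell from 63.6% to 27.9% of SCN neurons and Vip+ neurons stood at 19.8% and 19.2%. Leaving Nms+ nuclei out of the denominator gave Cck+ shares of 15.5% and 44.9%.

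Depth differed between these libraries along with the share. A Cck+ nucleus had a median of 13104.5 UMIs in replicate 1 and 3119 in replicate 2, against 12200 and 3282 in the other SCN neurons of the same library. With the SCN neuron nuclei of a library split by depth into 4 equal bins, the Cck+ share of replicate 1 was 14.5%, 13.9%, 19.7% and 13% from the shallowest bin to the deepest. In replicate 2 it was 39.8%, 41.0%, 37.7% and 35.2%. Every bin of replicate 1 lay below every bin of replicate 2. Among nuclei with 5000 to 15000 UMIs, a window filled by both libraries and chosen after seeing the data, the share was 15.2% (48 of 316, 11.4% to 19.6%) against 35.1% (298 of 850, 31.8% to 38.4%). The gap between the libraries was thus 23.1 percentage points over all nuclei and 19.9 points in that window. Depth within the window was not matched.

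Cck+ nuclei detected slightly more features at equal depth than the pooled other SCN neurons, but about as many as Vip+ nuclei. Before any thinning, the median was 4467 features in replicate 1 and 1777 in replicate 2, against 4229.5 and 1810 in the other SCN neurons. After each nucleus was thinned at random to 1500 UMIs, which left out 2 of 84 and 156 of 1743 Cck+ nuclei, the medians were 1007 (quartiles 981.25 and 1025) and 1004 (982 and 1028). The other SCN neurons had 993 (958 and 1025) and 990 (959 and 1025). The difference was 14 features in each library and the quartiles overlapped widely. Vip+ nuclei, with 1006 and 1003, matched Cck+ nuclei to within 1 feature, and Avp+ nuclei had 991 and 997. The Nms+ nuclei of replicate 2, which are part of the pooled others, had 958. The number of features varied less among Cck+ nuclei, with an SD of 39.6 and 36.4, than among the pooled other SCN neurons, with 49.2 and 49.8. The SD of Vip+ nuclei (42.9 and 39.4) and of the Nms+ nuclei of replicate 2 (41.2) was close to that of Cck+ nuclei, and the larger SD was that of Avp+ nuclei (48.6 and 52.9).

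Against the other SCN neurons of their own library, Cck+ neurons differed at a small share of features. Of 9179 features with a mean of at least 10 CPM in both PND30 libraries, 125 were at least 2-fold higher in Cck+ in both (1.36%) and 211 at least 2-fold lower in both (2.3%), together 3.66%. Fold changes are on the log2 scale with 1 CPM added. The median over all 9179 features was 0.02. By the same rule Avp+ neurons were set apart by 283 features (3.08%), with 109 higher (1.19%) and 174 lower (1.89%). Vip+ neurons were set apart by 652 (7.08%), with 326 in each direction (3.54%). Features lower in Cck+ reached further. The median smaller fold of the 2 libraries was 1.31 among the higher and 1.52 in size among the lower features, and 9 higher and 55 lower features passed 4-fold. The smallest fold inside the threshold was 1.00 for higher and 1.02 for lower features, and the largest just outside was 1.00 in both directions.

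The folds were alike in both libraries. Of the 209 features past 2-fold higher in replicate 1, 125 (59.8%) passed in replicate 2 too, and 203 (97.1%) had the same sign there. Of the 374 lower in replicate 1, 211 (56.4%) passed and 348 had the same sign. Read the other way, 125 of 247 higher features (50.6%) and 211 of 274 lower features (77%) of replicate 2 passed in replicate 1. No feature passed in opposite directions. Pearson's r of the folds was 0.752 across the 9179 features, against 0.677 for Avp+ and 0.874 for Vip+ neurons. Features are not independent replicates, and in each library they share 1 set of nuclei. As a scale for the libraries themselves, 365 of 9690 features (3.77%) differed by at least 2-fold between the Cck+ nuclei of the 2 libraries, 54 higher (0.557%) and 311 lower (3.21%) in replicate 1.

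**Figure D2:**
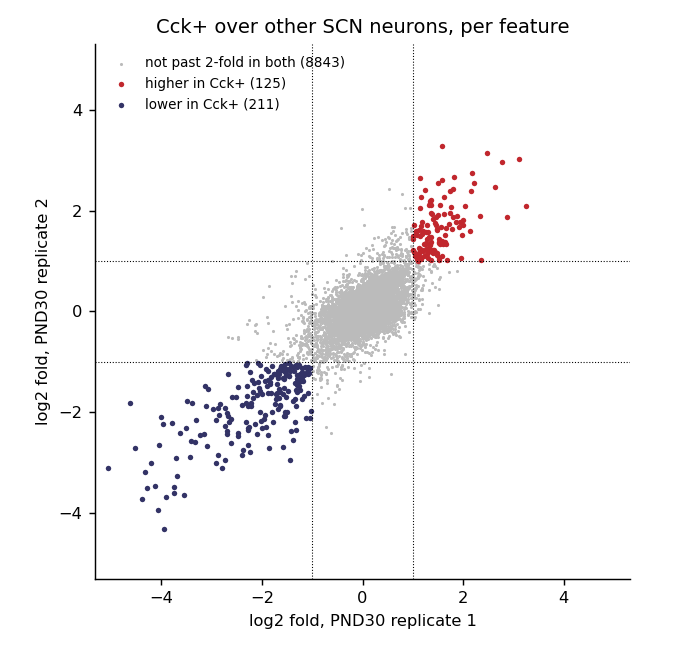
Each point is 1 of 9179 features, placed by its log2 fold of Cck+ over the other SCN neurons in PND30 replicate 1 (horizontal) and replicate 2 (vertical). Dotted lines mark 2-fold. The 125 features past 2-fold higher in both and the 211 past 2-fold lower in both lie along the diagonal, and the lower ones extend further from 0.

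The features that set Cck+ neurons apart covered a wide range of levels. Among the 125 higher features, the median level in Cck+ was 69.7 CPM in replicate 1 and 60.4 in replicate 2, against 24.0 and 19.4 CPM in the other SCN neurons, and the highest reached 2434 and 1949 CPM in Cck+. Among the 211 lower features, the median was 18.3 and 27.5 CPM in Cck+ and 75.3 and 100.1 CPM in the other SCN neurons, where the highest reached 4497 and 5633 CPM. Summed, the 125 higher features made up 20401 and 18195 CPM of the Cck+ profile. They made up 8446 and 6454 CPM in Avp+, 4658 and 4793 in Vip+ and 5506 in the Nms+ neurons of replicate 2. Of these 125, the 10 features with the largest differences held 47.7% and 47.1% of the summed difference. The 211 lower features summed to 12840 and 18737 CPM in Cck+ neurons. They summed to 38988 and 48720 in Avp+, to 87848 and 87742 in Vip+ and to 59339 in the Nms+ neurons of replicate 2. Cck+ neurons had the lowest sum of the 211 features of all 4 SCN neuron clusters in both libraries, also below the 27212 and 27901 CPM of mature astrocytes. The features were chosen on these same nuclei, so the high and the low sum in Cck+ neurons largely follow from the choice.

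Among the SCN neuron clusters, most of the lower features were highest in Vip+ neurons. In replicate 1 the highest SCN neuron cluster was Vip+ for 142 of the 211 and Avp+ for 69. In replicate 2 it was Vip+ for 119, Avp+ for 58 and Nms+ for 34. Cck+ was itself the lowest SCN neuron cluster for 186 of the 211 in replicate 1 and for 130 in replicate 2. The 211 features were chosen as lower in Cck+, so its low rank largely follows from the choice. Ranks were not counted over all features, so the counts here have no background share beside them. With the other annotated clusters of at least 20 nuclei included, Vip+ was highest for 95 of the 211 (45%) in replicate 1 and for 69 (32.7%) in replicate 2. Extra-SCN neurons were highest for 47 and 29, and mature astrocytes for 30 and 12. The 125 higher features were not all confined to neurons either. Over the same clusters Cck+ was highest for 86 of them in replicate 1 (5 clusters) and for 71 in replicate 2 (9 clusters). Mature astrocytes were highest for 35 and 12, and in replicate 2 microglia, a cluster of 34 nuclei, were highest for 20.

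**Figure D3:**
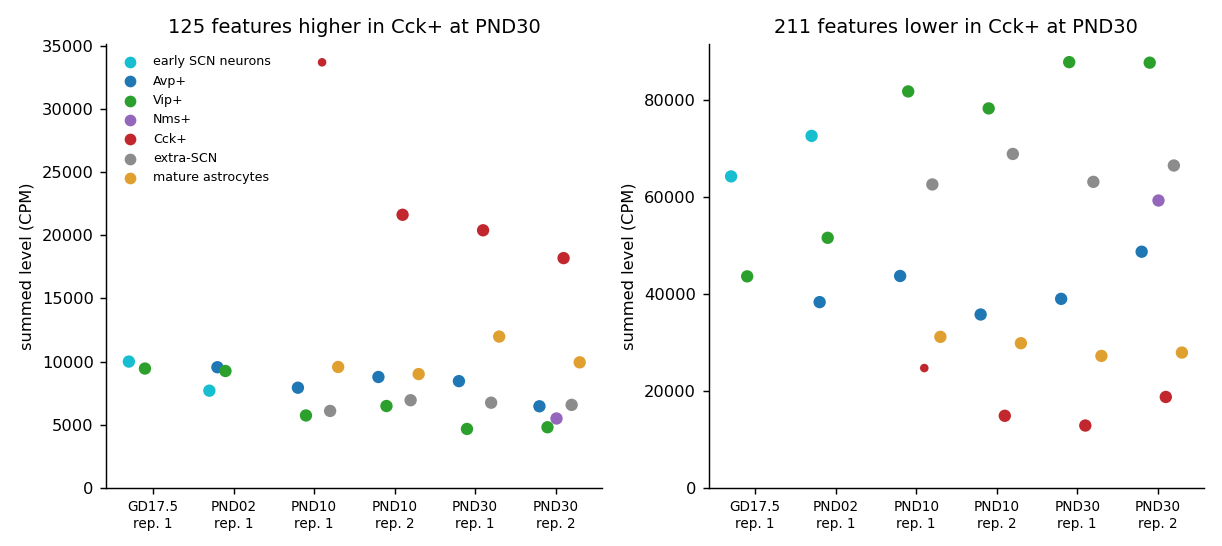
Summed level (CPM) of the 125 features higher in Cck+ at PND30 (left) and of the 211 lower features (right) in each cluster (colours) and library (horizontal axis), for clusters of at least 20 nuclei and, as a small point, the single Cck+ nucleus of PND10 replicate 1. At PND10 replicate 2 and at PND30 the Cck+ points are above all others on the left (18195 to 21630 CPM) and below all others on the right (12840 to 18737 CPM), which at PND30 follows from how the features were chosen.

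Taken 1 cluster at a time, Cck+ neurons stood nearest to Avp+ neurons. Against Avp+ neurons alone 279 of 9154 features (3.05%) passed 2-fold in both libraries, 127 higher (1.39%) and 152 lower (1.66%) in Cck+. Against Vip+ neurons 705 of 9206 (7.66%) passed, 344 higher (3.74%) and 361 lower (3.92%). Against extra-SCN neurons, which lie outside the nucleus, 947 of 9409 (10.1%) passed, 370 higher (3.93%) and 577 lower (6.13%). Nms+ neurons had enough nuclei only in replicate 2, where 925 of 9584 features (9.65%) passed, 577 higher (6.02%) and 348 lower (3.63%) in Cck+. In that library alone the comparison with Avp+ gave 631 (6.43%), with 323 higher (3.29%) and 308 lower (3.14%). The comparison with Vip+ gave 931 (9.49%), with 483 higher (4.92%) and 448 lower (4.56%). Pearson's r of log2 CPM between Cck+ and Avp+ neurons was 0.942 in replicate 1 (10268 features) and 0.954 in replicate 2 (10743 features). With Vip+ neurons it was 0.875 and 0.925, with the Nms+ neurons of replicate 2 0.942, with extra-SCN neurons 0.848 and 0.890, and with mature astrocytes 0.486 and 0.638. The Cck+ profiles of the 2 libraries correlated at 0.955, about as closely as Cck+ and Avp+ within replicate 2. These values are across features, which share the depth of their library.

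Distances between cluster means over 30 principal components, from nuclei thinned to 1500 UMIs, again put Avp+ neurons nearest. From Cck+ to Avp+ the distance was 6.43 in replicate 1 and 7.69 in replicate 2, in units of the component scores. From Cck+ to Vip+ it was 13.3 and 12.0, and from Cck+ to Nms+ 8.56 in replicate 2. In that library Nms+ neurons were thus nearer than Vip+ neurons by distance and by correlation. By the share of features past 2-fold they were not (9.65% against 9.49%). Avp+ and Vip+ means were 13.3 and 13.7 apart.

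Named by the size of the smaller of their folds, the pair of features highest above the other SCN neurons were those in rows 17944 and 16341. The feature in row 17944 stood at 21.8 CPM in the Cck+ neurons of PND30 replicate 1 (25 UMIs, Poisson interval 14.1 to 32.2) and at 19.8 CPM in replicate 2 (123 UMIs, 16.4 to 23.6). In Avp+ neurons it was 2.21 and 2.71 CPM. In Vip+ neurons there was no UMI in replicate 1, below a limit of 1.79 CPM, and 0.887 CPM in replicate 2. The Nms+ neurons of replicate 2 had no UMI for it (Poisson limit 1.67 CPM). The fold over the other SCN neurons, which held it at 1.64 and 1.54 CPM, was 3.11 and 3.03 (log2). Those levels are near the 1 CPM added, and the feature passed the 10 CPM filter only through Cck+ neurons. With 5 CPM added the fold was 2.01 and 1.92, below the 2.42 and 2.31 of row 16341. The order of the pair thus depends on the amount added. Only 12 of 84 Cck+ nuclei (14.3%) and 94 of 1743 (5.39%) had a UMI of it, against 1 of 80 mature astrocytes (1.25%, median depth 7219.5 UMIs) and 2 of 390 (0.513%, 2201 UMIs). The feature was not particular to Cck+ neurons. Extra-SCN neurons held it at 5.73 CPM (2.96 to 10.0) in replicate 1 and at 18.8 CPM (12.8 to 26.5) in replicate 2, where 22 of 377 nuclei (5.84%) had a UMI, much the same as in Cck+ neurons. Most Cck+ nuclei thus had no UMI of it at the depth reached. Its level was 14.8 CPM in the early SCN neurons of GD17.5 (13.3 to 16.3) and 12.4 CPM in those of PND02 (10.9 to 14), below the PND30 levels in Cck+ neurons and above those in Avp+ and Vip+ neurons.

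The feature in row 16341 stood at 78.5 CPM in the Cck+ neurons of replicate 1 (63.1 to 96.4) and at 42.1 CPM in replicate 2 (37.2 to 47.5), intervals that do not overlap. In Avp+ neurons it was 13.9 and 4.80 CPM and in Vip+ neurons 1.19 and 4.14 CPM. The folds were 2.78 and 2.96 (log2). A UMI was seen in 30 of 84 Cck+ nuclei (35.7%) and 173 of 1743 (9.93%). Among mature astrocytes none of 80 had a UMI of it (Poisson limit 5.26 CPM), and 4 of 390 did (1.03%). Extra-SCN neurons held it at 24.8 CPM (18.5 to 32.6) and 31.7 CPM (23.8 to 41.3), with a UMI in 21.3% and 9.81% of nuclei, so in replicate 2 the share of nuclei did not set Cck+ neurons apart from them. At PND10 it stood at 96.4 CPM in the 20 Cck+ nuclei of replicate 2 (7 UMIs, 38.8 to 199), against 11.6 CPM in Avp+ and 13.7 CPM in Vip+ neurons of that library. In younger stages it was found in other SCN neurons, at 27.4 CPM (25.4 to 29.5) in the early SCN neurons of GD17.5. At PND02 it stood at 34.7 CPM (32.1 to 37.4) in early SCN neurons and at 49.1 CPM (43.9 to 54.8) in Vip+ neurons, the latter near the level of Cck+ neurons in PND30 replicate 2.

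The pair lowest below the other SCN neurons, in rows 8892 and 16876, were abundant in Vip+ neurons. The feature in row 8892 stood at 7.85 and 8.04 CPM in Cck+ neurons at PND30, at 505 and 514 CPM in Vip+ and at 12.9 and 14.4 CPM in Avp+ neurons. The fold over the other SCN neurons together was -3.95 and -4.32, but over Avp+ neurons alone it was -0.65 and -0.77. The feature in row 16876 stood at 6.10 and 10.9 CPM in Cck+, at 394 and 491 CPM in Vip+ and at 25.7 and 16.5 CPM in Avp+ neurons, a fold of -4.07 and -3.95. It was not limited to Vip+ neurons. NG2 cells and oligodendrocyte precursors held it at 456 CPM (15 nuclei) and 489 CPM (46 nuclei), extra-SCN neurons at 111 and 114 CPM and mature astrocytes at 96.9 and 95.4 CPM, all above both Cck+ and Avp+ neurons. Its fold over Avp+ neurons alone was -1.91 and -0.55. Extra-SCN neurons held the feature in row 8892 at 172 and 208 CPM. Both features were thus far higher in Vip+ than in either Cck+ or Avp+ neurons. Their levels were lower in Cck+ than in Avp+ neurons, but not beyond counting error in every library. For row 8892 the Poisson intervals overlapped in replicate 1 (Cck+ 3.59 to 14.9 CPM, Avp+ 9.91 to 16.4). For row 16876 they overlapped in replicate 2 (Cck+ 8.49 to 13.9 CPM, Avp+ 13.1 to 20.6).

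A smaller set of features separated Cck+ neurons from every other SCN neuron cluster at once. Of 8772 features that could be read in all comparisons, 49 (0.559%) were past 2-fold higher in Cck+ than in Avp+ and Vip+ neurons in both libraries and than in Nms+ neurons in replicate 2, and 19 (0.217%) were past 2-fold lower. The same rule gave 36 higher and 8 lower for Avp+ (0.415% and 0.0922%) and 171 higher and 78 lower for Vip+ neurons (1.95% and 0.891%). Of the 125 higher features, 82 (65.6%) passed against Avp+ alone, 96 (76.8%) against Vip+ alone and 58 (46.4%) against both. Of the 211 lower, the counts were 101 (47.9%), 150 (71.1%) and 44 (20.9%).

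Summed, the 49 features set the median Cck+ nucleus above the 90th percentile of every other cluster shown at PND30, although single features among them could be rare, such as that in row 17944. Out of 1500 UMIs per nucleus, they gave a median of 15 UMIs in the Cck+ nuclei of replicate 1 (10th to 90th percentile 7 to 25.9, 82 nuclei) and of 13 in replicate 2 (6 to 23, 1587 nuclei). Avp+ nuclei gave 5 (2 to 11) and 4 (1 to 8), Vip+ nuclei 3 and 3, extra-SCN neurons 5 and 5 and mature astrocytes 6 and 5. The lower end of the Cck+ nuclei thus overlapped with the upper end of the Avp+ nuclei in both libraries. The features were chosen on these PND30 nuclei, so their height there is a description.

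**Figure D4:**
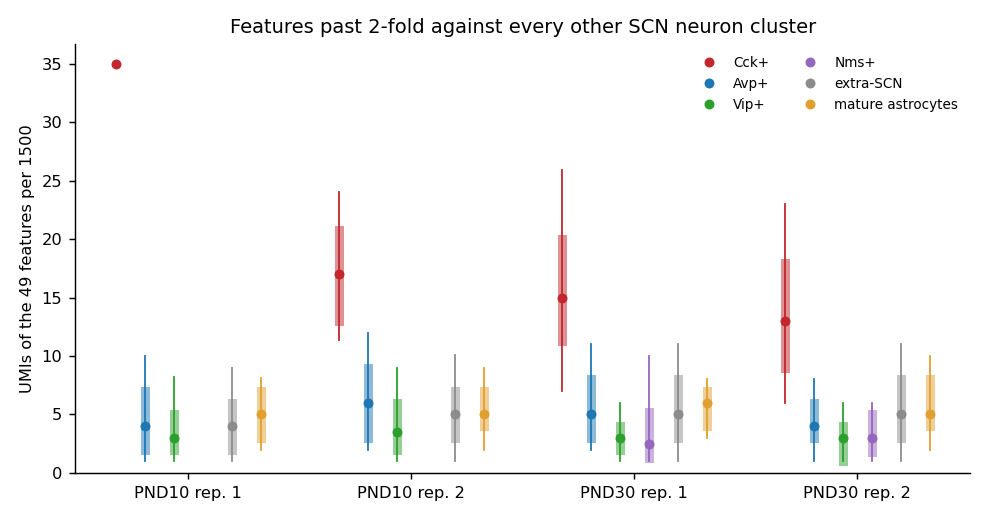
UMIs from the 49 features past 2-fold above every other SCN neuron cluster (vertical axis, out of 1500 UMIs per nucleus) in the PND10 and PND30 libraries (horizontal axis). Points are medians over nuclei, thick bars quartiles and thin bars the 10th to 90th percentile. Cck+ medians are 35 (1 nucleus), 17, 15 and 13, and all other medians shown are 6 or lower.

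The few Cck+ nuclei of PND10 replicate 2 had levels of these features near those of PND30, and the single nucleus of replicate 1 had higher ones. The 49 features gave 35 UMIs in that single nucleus, above the 90th percentile of Cck+ nuclei at PND30 (25.9 and 23). In replicate 2 they gave a median of 17 (11.4 to 24, 18 nuclei). Avp+ nuclei of the same libraries gave 4 and 6. In the single nucleus, of 7772 UMIs, the 125 higher features summed to 33711 CPM and the 211 lower features to 24704 CPM. Both sums lay above those of Cck+ neurons at PND30. Summed over the 20 nuclei of replicate 2, the 125 higher features stood at 21630 CPM, above the 8775 CPM of the Avp+ neurons of that library and the 20401 and 18195 CPM of Cck+ neurons at PND30. The 211 lower features stood at 14852 CPM, between the PND30 levels of 12840 and 18737. Of the 125 features, 52 were past 2-fold higher in these 20 nuclei than in the Avp+ neurons of that library and 12 past 2-fold lower (5 CPM added, background 12.4% and 12.3% of 9607 features). Of the 211, 11 were past 2-fold higher and 129 lower. These nuclei had a median of 2729 UMIs against 4383 in Avp+ neurons. They were annotated together with the PND30 nuclei from the same counts, so their likeness to them is not independent of the label.

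A test across all features asked what differed within Cck+ neurons between PND10 and PND30. With edgeR's quasi-likelihood test on counts summed per library, 1 of 7875 features (0.0127%) had a Benjamini-Hochberg adjusted p under 0.05, and 484 had an unadjusted p under 0.05. DESeq2 called 12 of 7417. The 1 called feature, in row 13252, was lower at PND30. It had 9 UMIs in the single nucleus of PND10 replicate 1 (1158 CPM), 12 UMIs in the 20 nuclei of replicate 2 (165 CPM), 9 UMIs in PND30 replicate 1 (7.85 CPM) and 184 UMIs in PND30 replicate 2 (29.6 CPM). The PND10 values lay above both PND30 values, with a log2 fold of -3.50 (edgeR adjusted p = 2.37e-06). In Avp+ neurons the same feature was at 49.5 and 28.4 CPM at PND10 and at 6.84 and 14.4 CPM at PND30. Without PND10 replicate 1 no feature was called, with a smallest edgeR adjusted p of 0.665 and 860 features at an unadjusted p under 0.05. Without PND30 replicate 1 or replicate 2, edgeR called none either, with 10 features at an unadjusted p under 0.05 in each case. Without PND10 replicate 2, which leaves a single PND10 nucleus, it called 5, all higher at PND30. A lone library was assumed to vary like the other stage. The filter kept 11670 and 10821 features without PND10 replicate 1 and 2, and 2036 and 2044 without PND30 replicate 1 and 2. With all libraries it kept 7875, so the counts of these fits cannot be compared directly. The PND10 sums held 7772 and 72585 UMIs against 1147025 and 6220520 at PND30, so the depth at PND10 limits what could be detected, and a feature that was not called is not shown to be equal.

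The position of Cck+ nuclei among all others was read from the 20 nearest nuclei over 30 principal components, after thinning to 1500 UMIs. Within PND30 replicate 1, 83.0% of the neighbours of Cck+ nuclei were Cck+, where Cck+ nuclei were 10.8% of the library searched. In replicate 2 it was 93.0% against 32.4%. Most other neighbours were Avp+, at 15.9% in replicate 1 and 4.11% in replicate 2. Searched across libraries, the 82 nuclei of replicate 1 had 98.4% Cck+ neighbours in replicate 2. The 1587 nuclei of replicate 2 had 67.3% Cck+ and 30.8% Avp+ neighbours in replicate 1. These shares describe how far the label follows the counts, since the authors drew their clusters from a similar space.

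In the younger libraries the nearest nuclei of PND30 Cck+ neurons carried other names. At PND10 they were Avp+ for 97.0% and 97.2% of neighbours in replicate 1 (for the nuclei of PND30 replicates 1 and 2 in turn), where 25.7% of nuclei were Avp+. In PND10 replicate 2 they were Avp+ for 84.9% and 87.7% and Cck+ for 9.33% and 5.43%, where Avp+ nuclei were 32.9% and Cck+ nuclei 0.398% of the library. At PND02 they were Vip+ for 97.3% and 97.5%, where Vip+ nuclei were 23.0%. At GD17.5 they were Vip+ for 98.8% and 99%, where Vip+ nuclei were 4.90% and early SCN neurons 82.4%. Avp+ neurons of PND30 also had mainly Vip+ neighbours at these stages. PND30 Avp+ neurons had 95.1% and 92.2% Vip+ neighbours at GD17.5 and 90.5% and 80.4% at PND02. Nearness across stages is a likeness of counts and not a lineage.

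**Figure D5:**
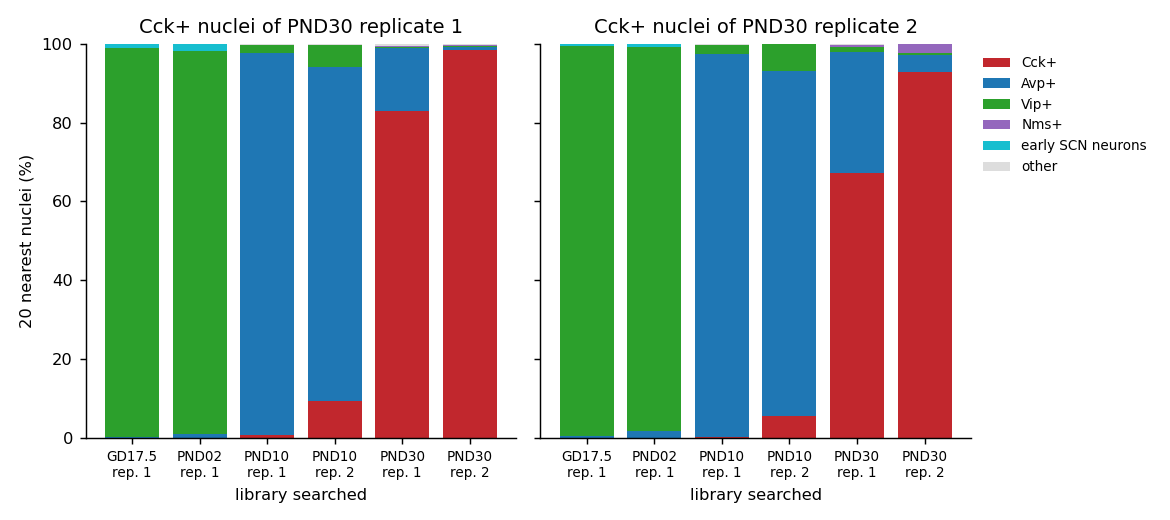
Annotation of the 20 nearest nuclei (vertical axis, percent) of the Cck+ nuclei of PND30 replicate 1 (left) and replicate 2 (right), searched in each library (horizontal axis). The neighbours are mainly Vip+ at GD17.5 and PND02, Avp+ at PND10 and Cck+ at PND30, with 67.3% Cck+ where replicate 2 was searched in replicate 1.

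Placing each nucleus at the nearest cluster mean of the other PND30 library showed where Cck+ and Avp+ neurons ran together. All 82 Cck+ nuclei of replicate 1 lay nearest to the Cck+ mean of replicate 2 (100%, 95.6% to 100%), but so did 162 of the 348 Avp+ nuclei (46.6%, 41.2% to 51.9%). In the reverse direction 1179 of 1587 Cck+ nuclei (74.3%, 72.1% to 76.4%) lay nearest to the Cck+ mean of replicate 1 and 385 nearest to the Avp+ mean, while 22 of 1162 Avp+ nuclei (1.89%) lay nearest to Cck+. The boundary between Cck+ and Avp+ thus fell at different places in the 2 libraries by this measure. An alternative chosen after seeing the data centred the libraries on the average of their Cck+, Avp+ and Vip+ cluster means. This centring uses the labels, so the placement after it is not independent of them. The shares were then 80 of 82 (97.6%) and 1365 of 1587 (86.0%) for Cck+, and 96 of 348 (27.6%) and 58 of 1162 (4.99%) for Avp+ nuclei. Vip+ nuclei lay nearest to Cck+ in 1 of 109 and 0 of 787 cases without centring and in 0 of 109 and 6 of 787 with it. The measure must choose among the Cck+, Avp+ and Vip+ means, with no mean for Nms+ neurons or for other clusters. Without centring it placed 74 of 78 mature astrocytes of replicate 1 nearest to Cck+, and with centring 230 of 296 of replicate 2. All 6 Nms+ nuclei of replicate 1 lay nearest to the Cck+ mean without centring. Of the 584 Nms+ nuclei of replicate 2, 12 (2.05%) did so, and 467 lay nearest to the Avp+ mean. A placement at Cck+ is therefore not specific to Cck+ nuclei. Of the 18 Cck+ nuclei of PND10 replicate 2, 16 lay nearest to the Cck+ mean of PND30 replicate 1 and 17 to that of replicate 2, against 24.0% and 51.8% of the 1487 Avp+ nuclei of that library.

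Cck+ neurons were a comparatively uniform cluster. The mean squared distance of a nucleus from its cluster mean was 61.3 in replicate 1 and 65.6 in replicate 2, against 89.2 and 79.8 for Avp+ and 67.8 and 69.9 for Vip+ neurons. The Nms+ neurons of replicate 2, at 60.6, were slightly more compact. The widest component carried 6.68% and 7.81% of the spread of Cck+ nuclei, against 13.3% and 10.7% in Avp+ and 11.7% and 11.3% in Vip+ neurons. Fitted on the 1587 Cck+ nuclei of replicate 2 alone, the first principal component explained 1.25% of the variance, against 2.66% in Avp+, 2.29% in Vip+ and 1.24% in Nms+ neurons. No second group within the cluster was sought.

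Against the early SCN neurons of younger stages, most of the features that set Cck+ neurons apart at PND30 differed in the same direction as against the other SCN neurons. Stage and library cannot be told apart here, since GD17.5 and PND02 had 1 library each. Of the 125 higher features, 87 and 80 were past 2-fold higher in the Cck+ neurons of PND30 replicates 1 and 2 than in the early SCN neurons of GD17.5, where 10.7% and 10.5% of all features were. Against those of PND02, 94 and 88 were (10.8% and 10.3% of all features). Of the 211 lower features, 144 and 120 were past 2-fold lower than at GD17.5 (13.4% and 10.9% of all features), and 153 and 130 than at PND02 (12.2% and 9.96%). Their summed level was 64268 CPM in the early SCN neurons of GD17.5 and 72628 CPM in those of PND02, above the 12840 and 18737 CPM of PND30 Cck+ neurons and below the 87848 and 87742 CPM of PND30 Vip+ neurons. PND30 Avp+ neurons, the cluster most like Cck+, showed part of the same difference from GD17.5, with 52 and 46 of the 125 features past 2-fold higher (9.05% and 9.85% of all features) and 86 and 75 of the 211 past 2-fold lower (13% and 11.4%). The lists were chosen for extreme levels in PND30 Cck+ neurons, so part of this difference follows from the choice.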

How the data were processed

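Nuclei of dissected SCN were profiled with a droplet 3' kit (10x Genomics). According to the submitters' processing notes and the file headers, reads were counted with Cell Ranger 5.0.1 on mm10, and the deposited values are raw UMI counts per feature and barcode, each library on its own. The authors filtered nuclei, removed doublets by score and clustered all stages with Seurat 4. The nuclei studied and the feature lists were chosen with earlier results of these data known.

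Annotation suffixes were matched to stages by barcode (99.984% or more found) and nuclei to libraries. Nuclei found in both libraries of their stage were left out, namely 1 mature astrocyte at PND10 and 1 Avp+, 1 Vip+ and 2 extra-SCN nuclei at PND30. At PND30 1 extra-SCN nucleus was found in neither library and was left out too. By this rule libraries of 1 stage shared no annotated barcode, and pairs of libraries from different stages shared 0 to 9. Named features were the 2 with the largest and the 2 with the most negative smaller fold of the PND30 libraries. The marker lists could not be read without gene names. Clusters under 20 nuclei were left out of feature comparisons. Principal components used 2000 variable features (scikit-learn 1.9.0). Stages were tested with edgeR 4.0.16 (TMM, filterByExpr) on summed counts, with DESeq2 1.42.0 as an alternative. Scripts were tested on simulated data. Libraries with the same replicate number deviated together with a correlation of 0.07 over 7875 features. With 2 libraries per stage and a single Cck+ nucleus in PND10 replicate 1, this value cannot decide whether the numbers are pairs. Replicate 1 was the deeper library at both stages, with median UMIs per Avp+ nucleus of 8053 against 4383 at PND10 and 12128 against 3296 at PND30. The numbers were not taken as pairs, and a replicate block is given as an alternative.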

Additional observations from a re-analysis of the deposited data

How the results depend on the processing

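The stage difference in the Cck+ share kept its direction under every alternative denominator, depth minimum and left-out library. It was 14.8 to 37.9 percentage points when single libraries were left out. The exact permutation test could not pass the threshold in any of these settings, since the smallest p it can give with so few libraries is 0.33. With the replicate block (exact sign-flip of the within-number differences) it was 26.3 points and p = 0.5, the smallest p that 2 pairs allow. The 336 features that set Cck+ neurons apart at PND30 became 614 with no filter (more features tested), 149 at 50 CPM (fewer tested) and 571 to 621 when 1 library was left out (1 condition fewer to meet), and stayed within 1.5 times under the other 5 settings. The count of features that changed between PND10 and PND30 was 1 in edgeR and 12 in DESeq2 (11 of them lower at PND30), 2 with the replicate block (edgeR smallest adjusted p = 0.0374) and 0 to 5 when 1 library was left out. When 1 library was left out, the number of features tested ranged from 2036 to 11670. The cause of the changes in count was not tested. The gain in features per nucleus grew with depth, from 6.5 at 1000 UMIs to 14 at 1500 and 30 at 3000. The gap between the PND30 libraries in the Cck+ share was 19.9 points between 5000 and 15000 UMIs. Averaged over the 2 libraries, neighbour and centroid shares moved by less than the SD between libraries, which was 7.01 and 18.2 points. Within replicate 1 the neighbour share was 83.0%, and 74.9% with 50 neighbours. For the nuclei of replicate 2 the centroid share was 74.3%, and 86.0% with centring. The 4 named features kept their direction and call wherever they passed the filter. Row 17944 did not pass it at 50 CPM or after thinning, and row 16341 did not at 50 CPM. Depth limits the PND10 side most, which rests on 1 and 20 nuclei.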
